A study of Saccharomyces cerevisiae with 90 samples.

Results

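Budding yeast of a tec1 knockout strain were grown for 6 h either on SD agar or in SD liquid, and RNA levels on the agar surface were compared with those in suspension. The comparison rests on 6 arrays that the labels name tec1 knockout, 3 from SD agar and 3 from SD liquid, each set lettered A to C, out of 90 arrays in the series. The series concerns thigmotropism, growth steered by contact with a surface, and the mucins and the MAP kinase pathway tied to it. The same agar and liquid pair at 6 h, with 3 arrays a group, was used for wild-type and for Kss1K42R, a strain whose label names a substitution in the MAP kinase Kss1, and these arrays served to show where the tec1 knockout differed. The agar and liquid pairs of 4 more strains, labelled [pRS313], [pRS316], msb2 knockout and flo11 knockout, also SD at 6 h with 3 arrays a group, are quoted for single genes and lists. The labels give the nutrient composition as SD for all of these groups. They name the knockout by its gene alone and give neither the parent strain, the mating type nor the ploidy, so the tec1 knockout stands for 1 strain. They also do not say whether the lettered samples were separate cultures, so p-values here reflect only how far the lettered samples scatter, which may be technical.

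Tec1 is a DNA-binding protein of the TEA family. It works with Ste12 at genes of filamentous and invasive growth, the mode in which yeast cells elongate, stay attached and push into agar. Upstream of this pair lie the membrane proteins Msb2, Sho1 and Opy2, the GTPase Cdc42, the kinases Ste20, Ste11 and Ste7 with the adaptor Ste50, and Kss1. FLO11, which encodes the cell-surface mucin needed for adhesion to agar, is a known target of Tec1 and Ste12 and also receives input from the protein kinase A route through Flo8 and from several repressors.

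The targeted gene matched the labels. TEC1 read 5.70, 5.63 and 5.69 log2 RMA signal on agar A, B and C of the tec1 knockout, and 5.34, 5.33 and 5.23 in liquid. All 6 values lay below the background limit of their array, set at the 95th percentile of signals from probe sets of the platform's other yeast, which ran from 5.99 to 6.23 on the arrays used. TEC1 was at least 13.1-fold lower than in wild-type on agar and at least 16.2-fold lower in liquid, and it read 9.41 and 9.79 in Kss1K42R. Replicates lay close together, with root mean square differences over all genes of 0.126 to 0.192 log2 between the agar arrays and 0.161 to 0.235 between the liquid arrays. Probe sets of 5449 S. cerevisiae genes were tested. Bulk RNA cannot tell fewer cells of a kind from less RNA per cell.

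On agar, 990 genes were higher and 1268 were lower than in liquid at an adjusted p under 0.05, which is 18.2% and 23.3% of the genes tested. With at least a 2-fold change the counts were 70 higher and 222 lower, or 1.28% and 4.07%. Falls also predominated among the largest changes, with 13 genes up and 44 genes down by 4-fold or more. The agar and liquid arrays did not overlap for 291 of the 292 genes past 2-fold, and for 3460 genes in all, or 63.5%. The median change over all genes was -0.015 log2. Centring each array on its median moved that median to 0.139 and gave 103 higher and 164 lower, so the excess of falls became smaller under that scaling but kept its direction.

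The largest rise of a named gene was that of FLO11, in a strain without TEC1 signal. FLO11 read 13.67, 14.32 and 14.54 on agar A, B and C and 9.85, 10.59 and 9.90 in liquid. The groups lay far apart, with agar A the lowest of its group. The change was 4.07 ± 0.29 log2 (SE of the fit, n = 3 arrays a group), or 16.8-fold, with an adjusted p of 1.6e-18. In wild-type the FLO11 change was 4.40 ± 0.29, and the difference between the strains was -0.33 ± 0.41 with an adjusted p of 0.67, which does not show that the strains responded alike. The FLO11 level in the tec1 knockout minus that in wild-type was -0.63 on agar, with an adjusted p of 0.21, and -0.30 in liquid, with an adjusted p of 0.46. FLO11 changed by 4.11 in Kss1K42R, 4.06 in [pRS313], 2.34 in [pRS316], 4.26 in the msb2 knockout and 0.17 in the flo11 knockout. Signals near 15 are at the top of the arrays' range, where a rise can be understated.

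**Figure D1:**
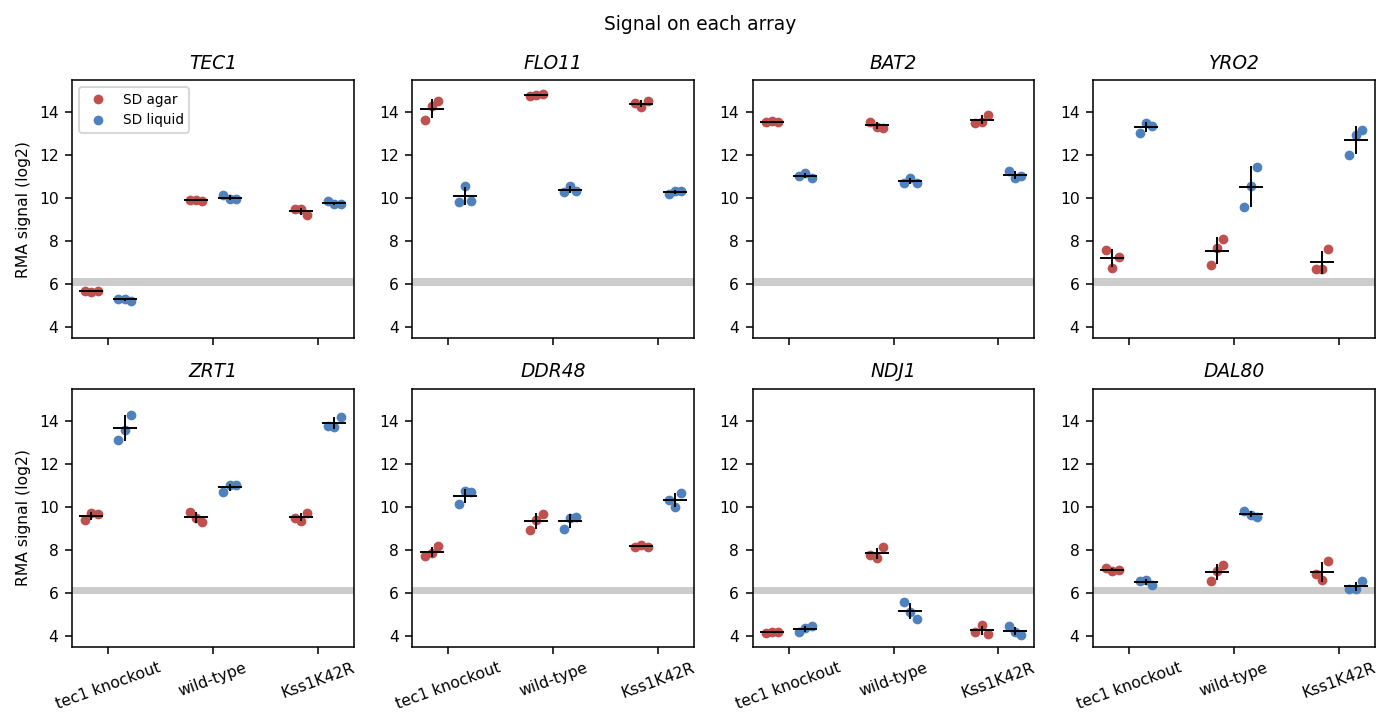
RMA signal (log2) of 8 genes on each array, by strain, with agar arrays in red and liquid arrays in blue. Points are arrays A to C, black bars are means ± SD, and the grey band is the range of background limits. FLO11 rose on agar in all 3 strains, the tec1 knockout and Kss1K42R shared high liquid levels of YRO2 and ZRT1, and DAL80 was high only in wild-type liquid among these 6 groups.

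The other large rises included genes of amino acid, carnitine and mitochondrial metabolism. BAT2, the cytosolic branched-chain amino acid aminotransferase, read 13.54, 13.63 and 13.57 on agar and 11.05, 11.19 and 10.93 in liquid. The BAT2 rise of 2.52 ± 0.18 log2, or 5.75-fold, had an adjusted p of 7.5e-19, and wild-type showed 2.60. PDH1, a mitochondrial enzyme of the methylcitrate route, rose by 2.58 ± 0.14 from liquid values of 10.06, 9.96 and 10.11. The PDH1 rise exceeded the 1.76 of wild-type, with an adjusted p of 0.0032 for the difference. CRC1, the inner-membrane carnitine carrier, read 10.65, 10.73 and 10.60 on agar against 7.63, 8.17 and 7.70 in liquid, a rise of 2.83 ± 0.27. YAT1, a mitochondrial carnitine acetyltransferase, rose by 1.91 ± 0.25, and in wild-type it changed by 0.50. That YAT1 difference had an adjusted p of 0.0053. Both carnitine genes thus rose on agar in the tec1 knockout.

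The remaining members of the 15 largest named rises included transporters, surface proteins and little-studied genes. BSC1, whose product resembles Flo11, read 8.24, 8.81 and 8.43 on agar and was below background on all liquid arrays, which makes it at least 5.53-fold higher on agar. CIS1 rose by 3.46 ± 0.24, from 6.21, 5.71 and 6.26 in liquid to 9.61, 9.75 and 9.21 on agar. FMP23 rose by 3.36 ± 0.34, BDS1, a sulfatase, by 3.08 ± 0.18 and ZTA1, a quinone oxidoreductase, by 2.88 ± 0.20. YCT1, a cysteine transporter, rose by 2.75 ± 0.24 and RCH1 by 2.52 ± 0.23. SRD1 rose by 2.44 ± 0.15 from 6.29, 6.59 and 6.39 in liquid, while its level in wild-type liquid was 9.16 and its rise there 1.82. PRM7, a pheromone-regulated gene, and PCS60, a peroxisomal enzyme, rose by 1.97 ± 0.33 and 1.95 ± 0.20.

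The steepest fall was that of YRO2, a plasma-membrane protein related to Hsp30. YRO2 read 7.62, 6.78 and 7.29 on agar and 13.04, 13.52 and 13.38 in liquid. Its change of -6.08 ± 0.54 log2 is a 67.7-fold drop with an adjusted p of 1.5e-14. HSP30, a stress-induced regulator of the plasma-membrane proton pump, followed with agar values of 9.76, 8.28 and 9.51 and liquid values of 14.24, 14.27 and 14.31. HSP30 changed by -5.09 ± 0.54, or 34.1-fold, with the 3 liquid arrays tightly grouped and agar B lowest. AQY2, an aquaporin, read 8.31, 8.08 and 8.06 on agar and 12.36, 12.78 and 12.57 in liquid, a change of -4.42 ± 0.29. All 3 genes encode membrane proteins. They were picked with non-overlapping agar and liquid arrays as a condition, so the lack of overlap is not a separate result.

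ZRT1, the high-affinity zinc transporter, read 9.38, 9.72 and 9.69 on agar and 13.11, 13.60 and 14.30 in liquid. Its change was -4.07 ± 0.27, or 16.8-fold lower on agar, with an adjusted p of 5.0e-20. HXT4, a hexose transporter induced by low glucose, read 8.98, 9.19 and 8.71 on agar against 11.89, 12.81 and 12.66 in liquid, a change of -3.49 ± 0.48. TPO3, a polyamine exporter, changed by -3.50 ± 0.36. BAP3, a permease for branched-chain amino acids, was below background on the 3 agar arrays and read 7.58, 8.22 and 8.41 in liquid, so it was at least 3.62-fold lower on agar. These transporters too were picked with non-overlapping agar and liquid arrays as a condition.

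The rest of the 15 largest falls held regulators, wall proteins and genes induced in stress. TOS8, a homeodomain protein, read 9.61, 8.90 and 9.57 on agar and 12.63, 12.36 and 12.60 in liquid, a change of -3.17 ± 0.22, against -3.42 in wild-type. GAT2, a GATA-type zinc-finger protein, changed by -2.84 ± 0.18. YPS3, a glycosylphosphatidylinositol-anchored aspartic protease of the surface, changed by -3.76 ± 0.27, and PIR3, a covalently bound wall protein, by -3.07 ± 0.37. RGI1, needed for normal energy metabolism in respiratory growth, changed by -3.32 ± 0.41, and its values of 9.01, 9.05 and 9.05 on agar lay well below 12.38, 12.24 and 12.46 in liquid. TDA6 changed by -3.52 ± 0.26, EGO4 by -3.07 ± 0.34 and TMA10 by -2.92 ± 0.47.

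**Figure D2:**
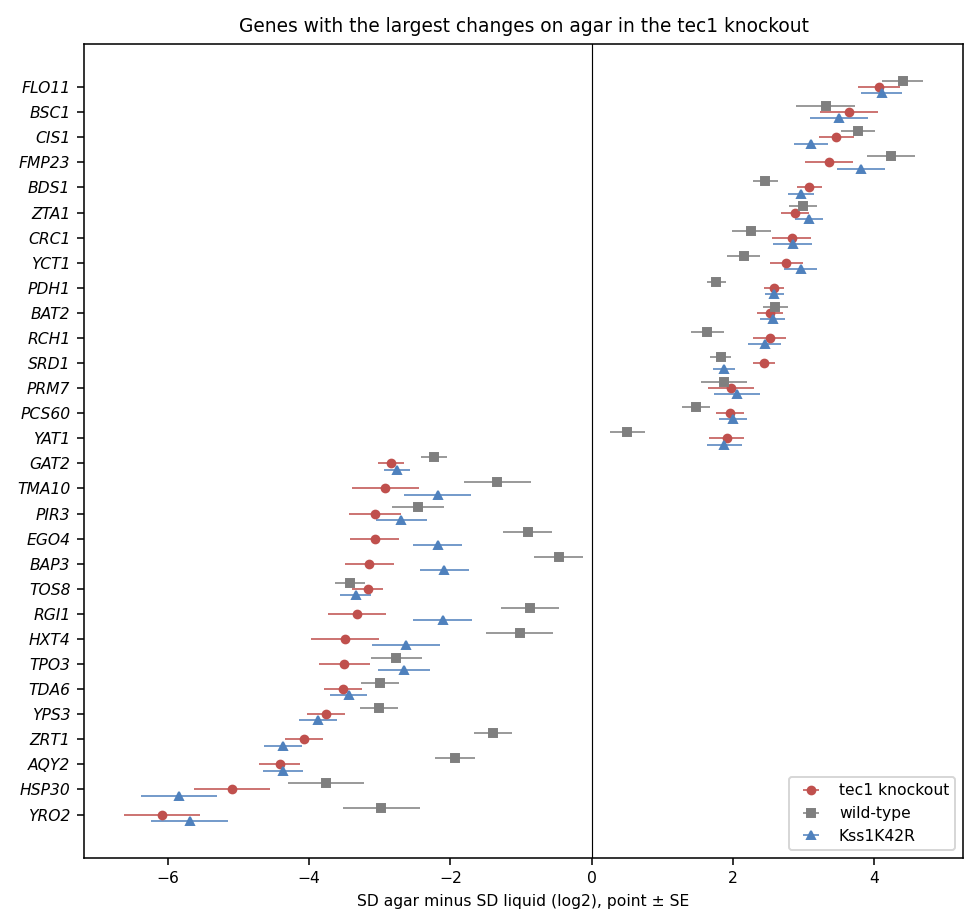
Agar minus liquid (log2, point ± SE of the fit) of the 15 largest rises and 15 largest falls among named genes of the tec1 knockout, with the same genes in wild-type and Kss1K42R. The tec1 knockout and Kss1K42R points lie close together for most genes, while wild-type falls less for YRO2, AQY2, ZRT1, HXT4, RGI1, BAP3 and EGO4.

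Genes of the MAP kinase pathway itself moved by small amounts. Of 18 components measured, 3 rose, 4 fell and 11 did not pass the test, shares near the 18.2% and 23.3% of all genes. The median was 0.08 log2 and the range -0.43 to 0.37, and median centring gave 8 higher and 1 lower. TEC1 is among the 3 that rose, by 0.37 between values that are all below background, and its call was lost without liquid C, with an adjusted p of 0.0596. The count that rose was 1 without liquid C and the count that fell was 2 without liquid A. STE12, the partner of Tec1, read 10.31, 10.28 and 10.13 on agar and 9.80, 10.01 and 9.82 in liquid and rose by 0.36 ± 0.13 with an adjusted p of 0.023. That call was lost without agar A (adjusted p = 0.082), agar B (0.0611), liquid A (0.0751) or liquid C (0.0745). STE20 rose by 0.28 ± 0.09, and lost its call without agar C, at an adjusted p of 0.0723. STE11, the kinase at the top of the MAP kinase cascade, fell by 0.33 ± 0.07, as it did in wild-type by 0.33. MSG5, a phosphatase acting on MAP kinases, fell by 0.30 ± 0.09 and lost its call without liquid A, at an adjusted p of 0.0966. OPY2 fell by 0.29 ± 0.10 and lost its call without agar A (0.07) or liquid A (0.137).

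KSS1, the MAP kinase of filamentous growth, read 8.86, 8.82 and 8.74 on agar and 9.17, 9.01 and 9.09 in liquid. Its change of -0.28 ± 0.10 had an adjusted p of 0.026, and the call was lost without agar C (0.0935), liquid A (0.0916) or liquid C (0.0599) and under both other scalings. In wild-type KSS1 rose by 0.48 ± 0.10, and the difference between the strains was -0.77 ± 0.15 with an adjusted p of 2.6e-04. The KSS1 level on agar minus that in wild-type was -0.69 log2, with an adjusted p of 2.0e-06, while in liquid the strains differed by 0.07 with an adjusted p of 0.64. BEM1, a polarity scaffold, likewise changed by -0.13 ± 0.09 against 0.36 in wild-type, with an adjusted p of 0.0098 for the difference. The wild-type rise of BEM1 was not seen in the other strains. BEM1 changed by 0.03 in Kss1K42R, 0.08 in [pRS313], -0.03 in [pRS316], -0.09 in the msb2 knockout and 0.00 in the flo11 knockout. KSS1 and BEM1 were the only 2 of the 18 components whose agar change differed from wild-type by the test. Of all genes, 2.4% and 8.07% were higher and lower in that difference. MSB2, the signalling mucin of the pathway, changed by -0.43 ± 0.19 with an adjusted p of 0.063, and passed the test without liquid A (-0.52, adjusted p = 0.0475) and in a fit of the tec1 arrays alone. FUS3, the MAP kinase of mating, was below background on agar and in liquid and is given no change.

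Among 20 genes known as outputs of filamentous growth, 4 rose and 12 fell, beside 18.2% and 23.3% of all genes. Their median was -0.52, and 18 did not overlap between agar and liquid, beside 63.5% of all genes. The members that rose were FLO11, SFG1, MEP2 and BUD8. SFG1, a regulator of superficial pseudohyphal growth, read 11.12, 11.19 and 10.98 on agar and 9.94, 9.92 and 9.97 in liquid, a rise of 1.15 ± 0.15 that compares with 1.36 in wild-type. Without agar B the count that rose was 2. DDR48, a stress and filamentation gene, read 7.70, 7.87 and 8.17 on agar and 10.13, 10.72 and 10.69 in liquid, a change of -2.60 ± 0.25. The DDR48 change was 0.00 in wild-type, -2.16 in Kss1K42R, -2.07 in [pRS313], -1.21 in [pRS316] and -1.48 in the flo11 knockout. In the msb2 knockout it was -0.42, with an adjusted p of 0.16. Against [pRS313] the difference did not pass, at an adjusted p of 0.513. YPS1, another surface protease, changed by -1.29 and MGA1, a gene related to heat-shock factors, by -1.54 ± 0.32. PGU1, a secreted pectinase and known Tec1 target, was below background on agar and at least 1.26-fold lower there than in liquid, and it lost its call without liquid C, at an adjusted p of 0.0927.

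Transcription factors known to act in surface growth showed the same mix, with a median of -0.31 log2. Of 20 measured, 3 were higher and 12 lower, beside 18.2% and 23.3% of all genes. The factors that fell furthest were TOS8 and NRG1, a repressor of FLO11 and of glucose-repressed genes. NRG1 read 7.65, 6.90 and 7.47 on agar and 9.50, 9.07 and 9.32 in liquid, a change of -1.95 ± 0.29, and wild-type showed -2.13. Of 4 FLO adhesin genes measured, FLO11 alone rose. FLO10 changed by -0.56 ± 0.20 and FLO9 by -0.43 ± 0.17, but centring or quantile scaling ended both calls. Leaving out agar C, liquid B or liquid C did so too, and FLO9 also lost its call without agar A (adjusted p = 0.136) or liquid A (0.058). Where both calls were lost, the 1 member left that fell was FLO1, which was below background on all 6 arrays.

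Of 24 cell wall mannoproteins and PIR proteins 16 fell and 1 rose, beside 23.3% and 18.2% of all genes, with a median of -0.60 log2, and the mean of the list per array ran from 10.84 to 10.97 on agar and 11.60 to 12.02 in liquid. HPF1, a wall mannoprotein, read between 11.90 and 12.04 on agar and 14.13, 14.49 and 14.53 in liquid, a change of -2.40 ± 0.22. SPI1, a wall protein induced in stress, changed by -2.19 ± 0.34. Of 31 genes of wall synthesis and the Slt2 pathway 17 fell and 1 rose, and median centring left 11 that fell. SLT2, the MAP kinase of wall integrity, read 11.44, 11.32 and 11.52 on agar and 12.81, 12.40 and 12.44 in liquid and fell by 1.12 ± 0.14. MTL1, a wall sensor, fell by 1.73 ± 0.24, CRH1, a chitin transglycosylase, by 1.34 ± 0.16 and CHS1, a chitin synthase, by 1.32 ± 0.15. The agar median of both lists was also below 0 in wild-type, at -0.64 and -0.35.

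General stress genes fell in 20 of 30 cases, beside 23.3% of all genes, and rose in 1. Their median of -0.92 log2 was the lowest of the 32 lists. In wild-type 10 were lower and 1 higher with a median of -0.45, beside 1151 of all 5449 genes that fell there. The strains were not uniform, with medians of -0.61 in Kss1K42R, -0.59 in [pRS313], -0.57 in the flo11 knockout, 0.05 in [pRS316] and 0.70 in the msb2 knockout. Several of these genes make or break down reserve carbohydrate. GPH1, glycogen phosphorylase, read 6.21, 6.11 and 6.14 on agar and 8.51, 8.79 and 8.80 in liquid, a change of -2.55 ± 0.40. HXK1, a hexokinase repressed by glucose, changed by -2.46 ± 0.49. The glycogen synthase GSY2 changed by -1.67, the branching enzyme GLC3 by -1.86 and TPS1, trehalose-phosphate synthase, by -0.91. HSP104 and HSP42, chaperones that act on protein aggregates, changed by -2.05 ± 0.27 and -2.33 ± 0.46. HSP12, often taken as a marker of the general stress response, changed by 0.00 in the tec1 knockout and by -1.21 in wild-type. That HSP12 difference did not pass the test. The difference from wild-type passed the test for 3 of the 30 genes, all lower, a share near the 8.07% of all genes.

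Of 13 genes of the zinc regulon 10 fell and none rose, beside 23.3% of all genes that fell, and median centring left 6 that fell, with ZRT1 first and ZRT2, the low-affinity transporter, at -1.31 ± 0.15. ZAP1, the activator of this regulon, changed by -0.77, against 0.08 in wild-type. The zinc list as a whole fell in wild-type too, with 9 lower, none higher and a median of -0.55, against -0.49 in the tec1 knockout. Kss1K42R gave 11 lower, none higher and a median of -0.58. Of 29 iron-uptake genes 18 fell and none rose, with a median of -0.55, and centring each array on its median let 2 pass as higher. Wild-type gave 18 lower, 2 higher and a median of -0.62 for the iron list, and Kss1K42R 16, 1 and -0.47. Over all 5449 genes 1151 fell in wild-type and 1272 in Kss1K42R. ARN2, a siderophore transporter, read 9.57, 9.81 and 9.56 on agar and 10.56, 12.51 and 12.90 in liquid. TIS11, which degrades messages of iron-using proteins, read 7.96, 8.12 and 8.05 on agar and 8.70, 10.59 and 11.39 in liquid. Liquid A was the lowest liquid array in both, and the mean of the iron list per liquid array ran from 10.83 to 11.66, against 10.56 to 10.67 on agar. ARN2 changed by -2.34 ± 0.33 and TIS11 by -2.18 ± 0.37. Without liquid A these values were -3.06 and -2.94, and 21 members of the list fell.

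Sulfur and methionine genes were split. Of 28 measured, 4 rose and 13 fell, beside 18.2% and 23.3% of all genes. MUP3 and MUP1, methionine permeases, changed by -2.35 ± 0.26 and -2.08 ± 0.30. SUL1, a sulfate permease, went the other way, from 11.30, 11.23 and 11.07 in liquid to 12.81, 12.89 and 12.74 on agar. The SUL1 rise of 1.61 ± 0.19 exceeded the 0.32 of wild-type, with an adjusted p of 0.00082 for the difference. Without liquid B the count of members that rose was 2. Among 17 phosphate genes 7 fell, beside 23.3% of all genes, the largest fall being that of PHM8, a phosphatase, at -2.57 ± 0.31.

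Genes under nitrogen catabolite repression, which yeast turns on when good nitrogen sources run short, gave more rises than falls. Of 28 measured, 12 rose and 3 fell, beside 18.2% and 23.3% of all genes, and the median was 0.32 log2. Without liquid C the count that rose was 7, and it stayed between 7 and 10 over all 6 leave-one-out fits. DAL4, the allantoin permease, read 13.04, 13.27 and 13.01 on agar and 11.48, 11.75 and 11.08 in liquid, a rise of 1.67 ± 0.41. DAL1, allantoinase, rose by 1.35 ± 0.22. DAL5, the allantoate permease, changed by 1.16 ± 0.45 with an adjusted p of 0.034, and that call was lost in 5 of the 6 leave-one-out fits, all but the one without liquid B, with adjusted p-values of 0.0517 to 0.124. AGP1, a broad amino acid permease, went against the list, reading 11.16, 11.32 and 11.02 on agar and 12.60, 13.30 and 13.01 in liquid, a fall of 1.81 ± 0.30. Among 49 amino acid synthesis genes 7 rose and 10 fell, beside the same 18.2% and 23.3%. BAT2 was the furthest from 0, and ARG3, of arginine synthesis, rose by 0.96 ± 0.14.

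Lists of energy metabolism genes had small median changes, while single members moved further. Of 37 genes of the respiratory chain and ATP synthase 17 rose and 2 fell, beside 18.2% and 23.3% of all genes, with a median of 0.17 log2 and no member beyond 0.68. ATP14, a subunit of ATP synthase, read 13.67, 13.54 and 13.57 on agar and 13.02, 12.82 and 12.89 in liquid, a rise of 0.68 ± 0.09. Wild-type showed 11 higher and 14 lower in this list, Kss1K42R 19 and 3, [pRS313] 20 and 0, [pRS316] 9 and 5, the msb2 knockout 28 and 1 and the flo11 knockout 3 and 1. Over all 5449 genes 1678 were higher and 1151 lower in wild-type, and 1093 and 1272 in Kss1K42R. Totals over all genes are not given here for the other strains, so their list counts cannot be ranked. The difference from wild-type passed the test for 9 members that were higher and 1 that was lower, beside 2.4% and 8.07% of all genes. Of 12 TCA cycle genes 5 rose and 2 fell, with IDH1, a subunit of isocitrate dehydrogenase, up by 1.03 ± 0.10 against 0.46 in wild-type. Both TCA falls were lost without agar A or liquid C. Of 16 glycolytic genes 5 fell and none rose, a share near the 23.3% of all genes, and centring turned this to 2 lower and 5 higher. TDH1, the glyceraldehyde-3-phosphate dehydrogenase expressed when growth slows, fell by 2.46 ± 0.22, and ENO1, an enolase, fell by 1.24 ± 0.12 from 14.96 to 15.04 in liquid. The glycolytic count that fell was 2 without liquid B and 3 without liquid C. Of 17 hexose transporters and glucose sensors 7 fell and none rose.

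Of 61 ribosome biogenesis genes 17 rose on agar and none fell, beside 18.2% and 23.3% of all genes, with a median of 0.38 log2. The numbers that rose in other strains were 52 in wild-type, 25 in Kss1K42R, 3 in [pRS313] and 38 in [pRS316]. In the flo11 knockout 9 rose, and in the msb2 knockout 9 rose and 14 fell, with a median of -0.07. Over all 5449 genes 990 rose in the tec1 knockout, 1678 in wild-type and 1093 in Kss1K42R. Such totals are not given here for the other strains, so their list counts cannot be ranked. The count was 8 to 11 when any 1 of the 6 arrays was left out and 48 after median centring. NOP16, a nucleolar assembly factor, read 10.86, 10.74 and 10.87 on agar and 9.83, 9.79 and 9.58 in liquid, a rise of 1.09 ± 0.31. NOP7 rose by 0.86 ± 0.20. The difference from wild-type itself passed the test for 1 of the 61 genes, which was lower, beside 8.07% of all genes. Of 127 cytosolic ribosomal protein genes 37 rose and none fell, with a median of 0.07. That count was 12 to 36 when 1 array was left out (15 without agar A, 18 without agar C, 12 without liquid B and 17 without liquid C) and 118 after median centring, so it follows the scaling closely. Most of these signals sit near the top of the range.

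Cell-cycle and mating genes gave small shifts. The counts given here stand beside 18.2% of all genes that rose and 23.3% that fell. Of 22 genes of G2/M and M/G1, 12 fell and none rose, with the daughter-cell genes DSE4 and DSE1 at -1.16 ± 0.18 and -0.94 ± 0.13. Of 24 G1/S genes 1 rose and 3 fell, and without agar A or C or liquid B or C the count that fell was 1. Of 28 pheromone-response genes 3 rose and 8 fell, a share of falls near the 23.3% of all genes. The 8 became 5 after quantile scaling and 2 after centring. The count that fell was 4 without agar B, 5 without agar C, 3 without liquid A and 5 without liquid B or C. STE2, the receptor of a cells for alpha factor, read 9.72, 10.08 and 9.65 on agar and 8.82, 8.93 and 8.96 in liquid, a rise of 0.91 ± 0.15. PRM4 fell by 1.18 ± 0.14. Of 7 a-cell markers 2 rose (1 without agar B) and 1 fell, while 1 of 4 alpha-cell markers fell, and that one, SAG1, lost its call under both scalings and without agar A, agar C or liquid B. The a-cell list averaged 7.34 to 7.49 per array on agar and 7.32 to 7.33 in liquid, and the alpha-cell list 8.07 to 8.29 and 8.14 to 8.58. Of 13 sporulation markers 4 fell, with IME2, a meiotic kinase, at -1.12 ± 0.14. The part of cell-cycle position or cell type in the other changes was not tested.

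**Figure D3:**
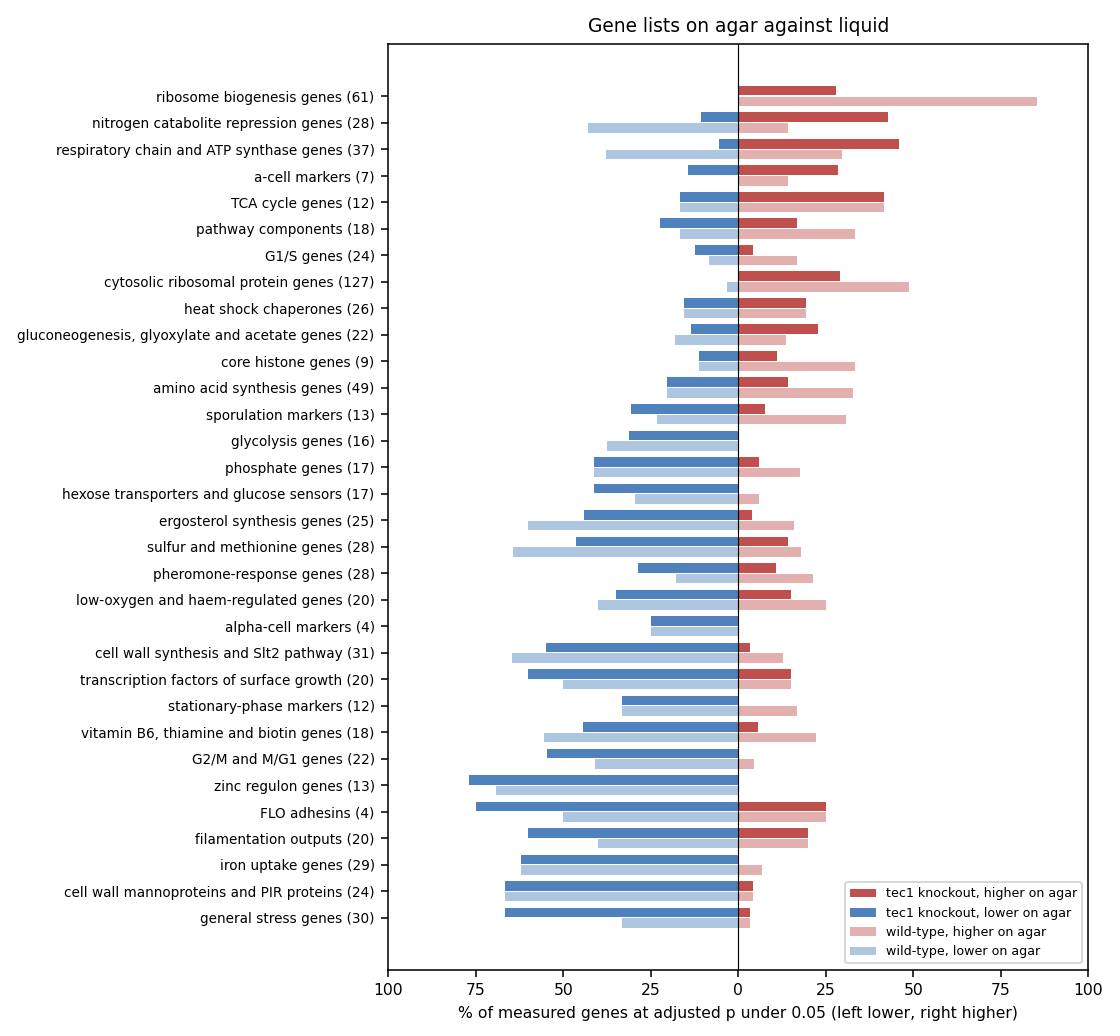
Percentage of the measured genes of each list that passed the test on agar against liquid (x axis, lower to the left and higher to the right), dark for the tec1 knockout and pale for wild-type, with the number of genes measured in brackets. General stress, wall, iron and zinc genes lean lower, and nitrogen and respiratory genes lean higher in the tec1 knockout.

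The agar change was next set against that of Kss1K42R, which keeps TEC1 signal but carries the altered kinase above it. No gene differed between the strains at an adjusted p under 0.05 (0% of 5449 genes, higher or lower) by limma on all arrays, and none did in a fit of only the arrays of the groups compared. At an unadjusted p under 0.05 there were 61 genes, and the smallest adjusted p was 0.361. The median half-width of the 95% interval of the difference was 0.36 log2, and for 5230 genes, or 96.0%, the interval lay within 2-fold either way. Of the 292 genes past 2-fold in the tec1 knockout, 191 had an interval of the difference within 2-fold, so for the others a difference of that size cannot be set aside. All 70 rises and all 222 falls had the same sign in Kss1K42R. Of these 59 and 164 also passed 2-fold there, which is 84.3% and 73.9% of the tec1 genes and 78.7% and 90.1% of the Kss1K42R genes. Across genes, which are not independent replicates, the changes correlated with r = 0.958.

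The 2 strains also resembled each other array by array. Root mean square differences between tec1 and Kss1K42R arrays were 0.160 to 0.255 log2 on agar and 0.155 to 0.258 in liquid, against 0.126 to 0.241 between replicates of the 3 strains. The same distances between tec1 and wild-type were 0.268 to 0.321 on agar and 0.372 to 0.464 in liquid. Among genes with a standard name the largest differences in the agar change, chosen by size, were those of RGI1 at -1.21 ± 0.58 and GPH1 at -1.09 ± 0.57, neither past the test. AAD10, an aryl-alcohol dehydrogenase gene, was among the genes that shared the smallest adjusted p, with -1.78 in the tec1 knockout and -0.87 in Kss1K42R.

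Wild-type gave a different picture. The agar change of the tec1 knockout was higher than that of wild-type for 131 genes and lower for 440, and by at least 2-fold for 18 and 89. Of the 70 rises of the tec1 knockout 43 also passed 2-fold in wild-type, which is 61.4% of the tec1 genes and 45.7% of the 94 wild-type genes. Of the 222 falls 92 were shared, or 41.4% of the tec1 genes and 60.1% of the 153 wild-type genes, and no gene passed in opposite directions. The falls of the tec1 knockout had a median of -1.37 there, -1.23 in Kss1K42R and -0.86 in wild-type. Across genes the correlation with wild-type was r = 0.742. Median centring changed the split of the 2-fold differences from 18 higher and 89 lower to 46 and 56.

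**Figure D4:**
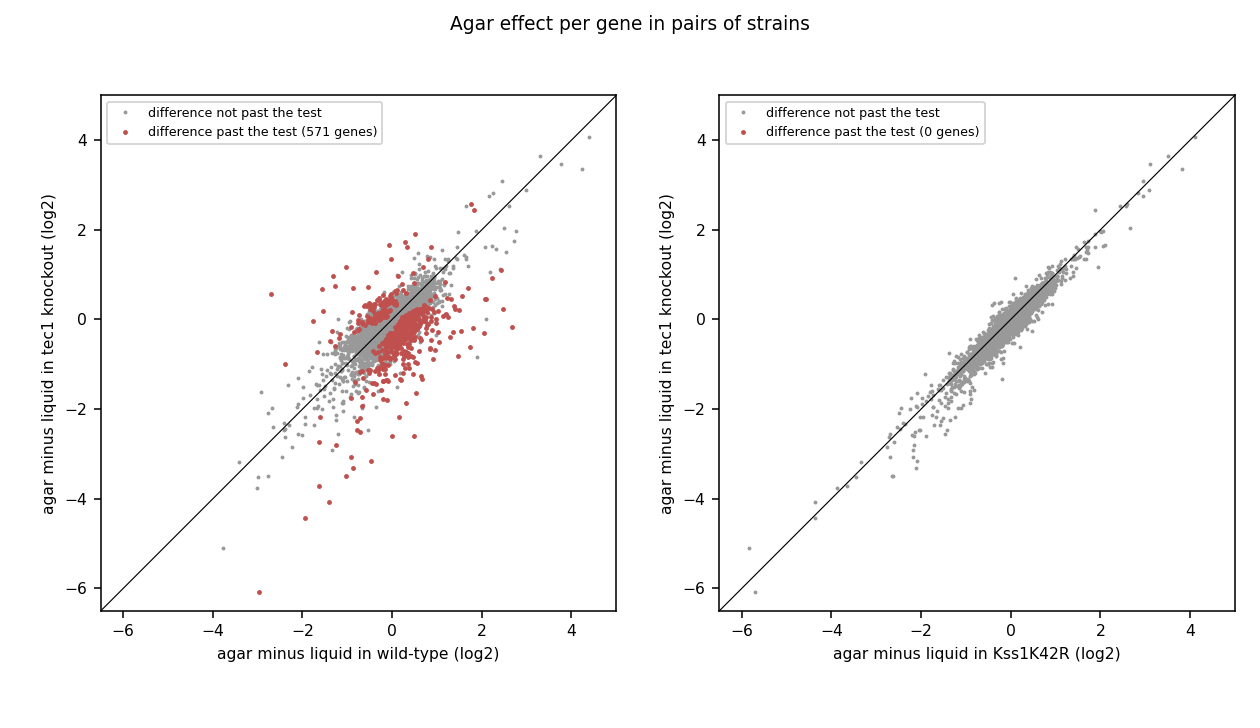
Agar minus liquid (log2) per gene in the tec1 knockout (y axis) against wild-type (left) and Kss1K42R (right), over 5449 genes, with the line of equality. Red points are genes whose difference passed the test, 571 on the left and 0 on the right.

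Most of this difference lay in the liquid cultures. In liquid, 878 genes (16.1%) were higher and 482 (8.85%) lower in the tec1 knockout than in wild-type, and on agar 77 (1.41%) were higher and 287 (5.27%) lower. Of the 89 genes with a lower agar change, 55 were higher than wild-type in liquid alone, 19 were lower on agar alone, 11 were both and 4 neither. Of the 18 genes with a higher agar change, 15 were lower in liquid alone. These contrasts share their arrays with the difference itself and only say where it arises.

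Genes with the liquid pattern included the leading falls. YRO2 was 2.76 log2 above wild-type in liquid (adjusted p = 1.1e-04) and at -0.34 from it on agar (0.82). ZRT1 was 2.76 above in liquid and at 0.08 on agar, and AQY2 2.61 and 0.12. HXT4 was 2.30 above in liquid. BAP3 was below background in wild-type liquid and at least 3.84-fold higher in tec1 liquid. GPM2, a homologue of phosphoglycerate mutase, read 10.17, 10.16 and 10.10 in tec1 liquid and averaged 6.54 in wild-type liquid, a gap of 3.61. On agar GPM2 read 7.73, 7.12 and 7.80, and its agar change of -2.59 ± 0.32 faced 0.49 in wild-type. With [pRS313] in place of wild-type the difference in the agar change lost its call for GPM2 (-0.67, adjusted p = 0.554), AQY2 (-1.09, 0.132) and HXT4 (-0.47, 0.823), and with [pRS316] all 3 kept it.

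A second group lay below the wild-type level on agar. NDJ1, a meiotic telomere protein gene, was below background on all 6 tec1 arrays, while in wild-type it averaged 7.84 on agar and was below background in liquid. It was at least 3.28-fold higher on agar than in liquid in wild-type, and at least 3.09-fold lower in the tec1 knockout than in wild-type on agar. NDJ1 rose by 2.15 in the strain labelled [pRS316] and by 2.01 in the flo11 knockout, changed by 0.03 in Kss1K42R, and gave 0.47 in [pRS313], so the controls were not uniform. PRM5, a pheromone-regulated gene also induced by wall stress, read 7.53, 7.26 and 7.01 on tec1 agar and averaged 9.09 on wild-type agar, a difference of -1.83 with an adjusted p of 1.6e-06. DDR48 combined both patterns against wild-type, at 1.18 above it in liquid and -1.42 on agar.

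The series holds 2 further strains with no pathway mutation in their labels, [pRS313] and [pRS316], named for plasmids, each with 3 SD agar and 3 SD liquid arrays at 6 h. With [pRS313] in place of wild-type the differences past 2-fold were 14 higher and 42 lower, and with [pRS316] 72 higher and 210 lower. None of the 18 higher genes held against [pRS313] and 4 held against [pRS316], while 21 and 40 of the 89 lower genes held. Differences lower by 2-fold against wild-type and also past the test on the same side against both plasmid strains numbered 19, with 14 of standard name, and there were 0 higher. These 3 comparisons use the same tec1 arrays and are not independent. YRO2, ZRT1, BAP3, RGI1, EGO4, TDH1 and PRM5 were among them. PRM5 rose by 0.96 in wild-type, 1.06 in [pRS313], 1.18 in [pRS316], 1.08 in the msb2 knockout and 1.32 in the flo11 knockout, and changed by -0.67 in the tec1 knockout and -0.41 in Kss1K42R. The fall of PRM5 in the tec1 knockout had an adjusted p of 0.040 and was lost in 5 of 6 leave-one-out fits (0.0656 to 0.16), in all but the one without agar A. ZRT1 changed by -4.07 in the tec1 knockout and -4.38 in Kss1K42R, and by -0.85 to -2.04 in the other 5 strains.

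Among the nitrogen genes the agar change was higher than in wild-type for 11 of 28 genes, beside 2.4% of all genes, and lower for 3, near the 8.07% of all genes. DAL80, a GATA-type repressor of these genes, averaged 7.08 on agar and read 6.55, 6.61 and 6.38 in liquid in the tec1 knockout, while wild-type averaged 6.97 and 9.67. The DAL80 difference of 3.27 ± 0.56 had an adjusted p of 3.4e-05, and in liquid alone the tec1 knockout stood at -3.16 from wild-type. DAL7, PUT4 and PUT1, of allantoin and proline use, differed by 2.28, 2.26 and 2.02. In wild-type 12 of the 28 genes fell on agar with a median of -0.27. Medians in the other strains were 0.31 in Kss1K42R, 0.18 in [pRS313], 0.52 in [pRS316], 0.80 in the msb2 knockout and 0.49 in the flo11 knockout, on the side of the 0.32 of the tec1 knockout. DAL80 changed by 0.31 in [pRS313] and 1.25 in [pRS316], against 0.57 in the tec1 knockout and -2.70 in wild-type.

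**Figure D5:**
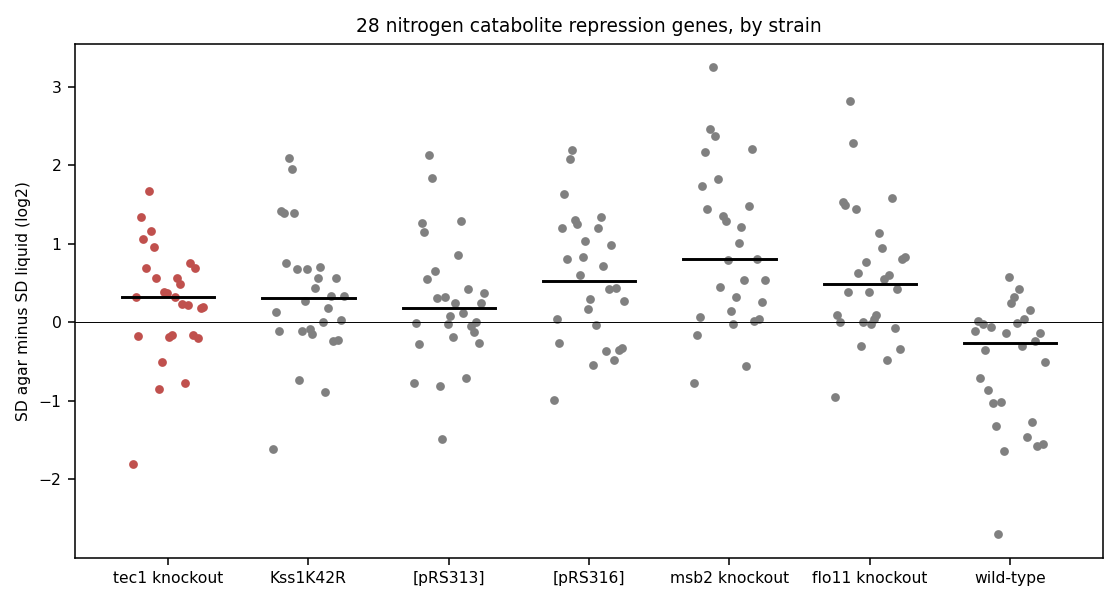
Agar minus liquid (log2) of 28 nitrogen catabolite repression genes in 7 strains, each point a gene and each bar the median. Wild-type alone has a median below 0, at -0.27, while the tec1 knockout in red has 0.32.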

How the data were processed

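RNA was measured on Affymetrix arrays. The authors deposited log2 signals of 10928 probe sets, made with RMA per the submitters' processing notes. Its version is not given in the sources used here, nor are its settings. The platform annotation names 1 gene for 7244 probe sets, of which 5498 belong to S. cerevisiae and 1746 do not. The brightest probe set was kept for 47 genes with several, leaving 5449 genes. All 90 arrays entered a linear model that gave each of the 29 groups its own mean. It was fitted with limma 3.58.1 (R 4.3.3). The moderated 2-sided test had 61 residual degrees of freedom plus 2.88 from the prior, and p-values were adjusted by Benjamini-Hochberg over all genes. A gene was called at an adjusted p under 0.05, and counts are also given at 2-fold. An exact permutation test of 3 arrays against 3 cannot go below 0.1. Errors are standard errors of the fit. Where 1 group was below background on every array, only a lower bound of the fold is given, taken against the background limit.

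Named genes are the 15 largest rises and falls with a standard name, 2-fold changes and no overlap, 8 per side of each difference, the pathway genes, FLO11, PGU1, and up to 4 called members per list. Others were chosen after their values were seen. Members and the 32 lists were chosen with earlier results of these data known. Precision is limited by the 3 arrays a group. Sequences and promoter motifs were not analysed here. Tables and figures were made with Python 3.11.15, pandas 2.3.3 and matplotlib 3.10.9.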

Additional observations from a re-analysis of the deposited data

Results flagged for a closer look

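The agar change differed between the tec1 knockout and wild-type by the test of the difference itself for 18 genes that were higher and 89 that were lower at 2-fold. The 8 largest on the higher side were DAL80 (3.27), DAL7 (2.28), PUT4 (2.26), DAL5 (2.18), PUT1 (2.02), VBA2 (1.74), DAL4 (1.73) and UGA4 (1.73), in log2 of the tec1 agar change minus that of wild-type. VBA2, a vacuolar amino acid transporter, changed by -0.03 in the tec1 knockout and -1.76 in wild-type. UGA4, the permease for gamma-aminobutyrate, changed by 0.18 and -1.55, and its call was lost without wild-type agar B (1.52, adjusted p = 0.0506). DAL5 lost its call without tec1 liquid C (2.02, adjusted p = 0.0533). DAL4 lost its call in 10 of 12 fits that each left out 1 array, with adjusted p-values of up to 0.106.

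The 8 largest on the lower side were YRO2 (-3.10), GPM2 (-3.08), NDJ1 (-2.85), BAP3 (-2.68), ZRT1 (-2.68), DDR48 (-2.61), AQY2 (-2.49) and HXT4 (-2.47). HXT4 lost its call without wild-type agar A (-2.04, adjusted p = 0.0632). The NDJ1 value compares signals of which only those on wild-type agar were above background, and the BAP3 value signals of which only those in tec1 liquid were, so neither is a measured size and their places in this order are not settled. Against [pRS313] the calls of GPM2, NDJ1, DDR48, AQY2 and HXT4 were lost, with adjusted p-values of 0.132 to 0.823.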

How the results depend on the processing

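Without a fold threshold the tec1 agar counts were 990 higher and 1268 lower, and the differences from wild-type 131 and 440. Leaving out the dimmest 25% of genes left 127 of the 222 falls and 27 of the 89 lower differences. Median centring gave 46 higher and 56 lower differences from wild-type, and moved the median of all genes in that difference from -0.09 to 0.15. Wild-type replaced by [pRS316] gave 72 and 210, and by [pRS313] 42 lower. Leaving out 1 array gave 65 to 73 rises, 205 to 248 falls, 14 to 21 higher and 76 to 96 lower differences from wild-type, and 0 differences from Kss1K42R, which stayed at 0 under all alternatives run. HXK2 turned to 0.017 after centring. With [pRS313] as control DAL4 turned to -0.456, DAL5 to -0.675, UGA4 to -0.063 and VBA2 to -0.283, and with [pRS316] DAL4 to -0.406, DAL5 to -1.033, DAL7 to -0.339, DAL80 to -0.682 and PUT1 to -0.234. The cause was not tested. Of 906 leave-one-out values of named genes in the tec1 agar change 819 kept their call and direction, 85 lost the call and 2 gained it.

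Whether the letters pair the samples was not settled. Deviations from the group mean correlated at 0.233, 0.277 and -0.111 between tec1 agar and liquid arrays of the same letter. Between unlike letters the values ran from -0.363 to 0.254, and 3 letters are too few to decide. With the letter as a replicate block the counts were 69 higher and 222 lower, 15 and 86 for the difference from wild-type, and 0 from Kss1K42R. Under the block DAL5 and PRM5 lost their calls in the tec1 agar change (adjusted p = 0.068 and 0.0533), and DAL4 and DAL5 in the difference (0.083 and 0.0525). The depth of an array is its signal over background: 14 of the 292 genes past 2-fold were below background in 1 group and 2 in both.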

Other observations

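The list counts of this section stand beside 18.2% of all genes that rose and 23.3% that fell. Of 26 heat shock chaperone genes 5 rose and 4 fell, with HSP30, HSP42, HSP104 and HSP78 as the largest falls. The chaperone count that rose was 2 without agar A, agar C, liquid B or liquid C. Of 25 ergosterol synthesis genes 11 fell and 1 rose, within -0.43 to 0.30 log2, and 1 fell after median centring and 7 without liquid B. Of 20 low-oxygen and haem-regulated genes 3 rose and 7 fell. ROX1, the repressor of low-oxygen genes, rose by 0.99 ± 0.19 and HEM13, a haem synthesis gene that Rox1 represses, fell by 0.89 ± 0.17. Without liquid B the low-oxygen count that fell was 2, and 4 without agar A or C.

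Of 18 genes of vitamin B6, thiamine and biotin 8 fell and 1 rose. Among the biotin genes, BIO2, biotin synthase, rose by 1.15 ± 0.13, while BIO3 and BIO5 fell by 1.37 ± 0.17 and 0.84 ± 0.22, with the same signs in wild-type at 0.98, -1.01 and -1.16. Of 22 gluconeogenesis, glyoxylate and acetate genes 5 rose and 3 fell, with MLS1, malate synthase, up by 1.36 ± 0.30. Of 12 stationary-phase markers 4 fell and none rose, with UBI4, polyubiquitin, at -1.15 ± 0.16. Of 9 core histone genes 1 rose and 1 fell, by 0.20 and 0.21, and the rise was lost without any array except liquid B.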
